A study of Mus musculus with 6 samples.

Results

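Expression of 10 mouse genes of prostaglandin synthesis and reception was compared between prostate stromal cells with an empty lentiviral vector and cells with the S37A form of β-catenin. The genes were taken by name: the cyclooxygenases Ptgs1 and Ptgs2, the synthases Ptges, Ptgis and Ptgds, and the receptors Ptger1, Ptger2, Ptger3, Ptger4 and Ptgfr. They are 10 of the 24346 gene symbols measured. Both groups, with 3 libraries each, came from primary stromal cells grown out of dissociated prostates of C57BL/6 mice aged 8 to 12 weeks and kept in culture for at most 3 weeks. Both had been enriched by keeping the cells that attached to collagen within 30 min, in medium with 5% fetal bovine serum, 5% Nu-Serum and 1e-10 M dihydrotestosterone (DHT), an androgen. One group carried the FU-CGW lentiviral vector, and the other carried the same vector with the S37A β-catenin cDNA, a form that lacks a phosphorylation site through which the protein is marked for breakdown. The promoter that drives the insert, the share of cells infected and the number of mice behind each library are not given in the sources used here, so p-values measure the spread between these libraries, which may be technical.

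Prostaglandins are made in a chain of steps. Phospholipases free arachidonic acid from membranes, a cyclooxygenase (Ptgs1, present in most tissues, or Ptgs2, which is induced by growth factors and inflammatory signals) turns it into prostaglandin H2, and a terminal synthase sets which prostanoid results. Prostaglandin E2 acts on the receptors EP1 to EP4, which are coupled to different G proteins, and stromal cells of many organs are a source of it.

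The values are FPKM, sequenced fragments per kilobase of transcript relative to library size, summed over the transcript models of a gene. The cDNA kit does not mark strand, so for every gene, Ptger1 included, reads from the other strand at the same place cannot be told apart. The widths of the deposited confidence intervals implied 46.2 to 50.9 M fragments in the vector libraries and 40.6 to 46.8 M in the S37A libraries. Ctnnb1, which encodes β-catenin, ranged from 99.1 to 116 FPKM in vector and from 132 to 146 FPKM in S37A libraries, and Axin2, a feedback gene of the Wnt pathway, from 0.092 to 0.169 and from 2.74 to 3.29 FPKM. Of 14 stromal markers, which summed to 10510 to 10900 FPKM in vector and 12130 to 12210 FPKM in S37A libraries, Acta2, Tagln, Vim and Col1a1 had the highest means, and Lum, another matrix gene, stayed at 0.251 to 0.502 FPKM. Markers of other cells were present: the summed level of 12 epithelial markers was 24.0 to 39.4 FPKM over the 6 libraries, led by Cldn4 and Krt18, and that of 10 endothelial markers 107 to 126 FPKM, led by Emcn and Cdh5. The 18 macrophage markers summed to 24.8 to 31.1 FPKM in vector and 63.3 to 71.6 FPKM in S37A libraries. Of the 18, 13 were higher in every S37A library than in any vector library, as were 11.3% of the 12022 genes tested. That tested set leaves out 7 of the 18 markers as too low. Cd74 was the 1 marker lower in every S37A library, at 0 to 0.116 FPKM against 0.155 to 0.259 FPKM in vector. Lyz2 led the macrophage sum at 12.9 to 16.3 FPKM in vector and 33.8 to 38.9 FPKM in S37A libraries. Adgre1 was at 0.0407 to 0.0984 FPKM in vector and 0.127 to 0.293 FPKM in S37A libraries. The 8 mast cell and basophil markers summed to 0.812 to 1.12 FPKM, led by Kit, with Tpsb2 at 0 in every library. Because these are bulk samples, fewer cells of a type and less RNA per cell cannot be told apart.

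The promoters of the most abundant gene, Ptgs2, and of the pair of genes that differed between the groups, Ptgs1 and Ptger4, are shown for their sequence context, as the 250 bases before the RefSeq start on GRCm38.p6 (mm10), on the gene's strand. Capitals mark matches to any of 8 short motifs on either strand: the TATA box TATAAA, the cyclic AMP response element (CRE) core TGACGT, the E-box CACGTG, the C/EBP palindrome TTGCGCAA, the GC box GGGCGG, the TCF core CTTTG, the AP-1 site TGANTCA and the NF-κB site.
Ptgs2 (chr1:150099781-150100030, plus strand): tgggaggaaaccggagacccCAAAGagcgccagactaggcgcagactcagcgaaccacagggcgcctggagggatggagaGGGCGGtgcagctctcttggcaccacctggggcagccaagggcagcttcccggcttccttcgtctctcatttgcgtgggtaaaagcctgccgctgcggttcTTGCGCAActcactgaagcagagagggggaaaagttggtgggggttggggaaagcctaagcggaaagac
Ptgs1 (chr2:36230176-36230425, plus strand): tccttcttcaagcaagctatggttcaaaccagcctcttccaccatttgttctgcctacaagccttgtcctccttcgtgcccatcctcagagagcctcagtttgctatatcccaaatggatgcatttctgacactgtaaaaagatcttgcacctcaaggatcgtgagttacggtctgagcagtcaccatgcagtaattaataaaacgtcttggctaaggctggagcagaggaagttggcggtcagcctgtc
Ptger4 (chr15:5244188-5244437, minus strand): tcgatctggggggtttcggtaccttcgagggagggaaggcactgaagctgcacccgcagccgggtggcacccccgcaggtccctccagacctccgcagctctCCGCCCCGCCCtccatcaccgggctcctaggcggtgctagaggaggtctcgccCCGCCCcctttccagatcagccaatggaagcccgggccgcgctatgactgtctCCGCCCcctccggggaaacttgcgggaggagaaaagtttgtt
Ptgs2 position 5 to 30 after the start: tcaccactACGTCACGTGgagtccgc

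In Ptgs2 the C/EBP palindrome began 69 bases before the start, the GC box 170 and the TCF core, as its complement, 230. The C/EBP palindrome was in 0.183% of the 32841 RefSeq windows from 250 bases before to 50 after a start, the GC box in 35.7% and the TCF core in 53.9%. Just after the Ptgs2 start, the complement of the CRE core lay at 13 to 18 and the E-box at 17 to 22, so that they overlapped. The deposited Ptgs2 model starts 93 bases downstream of this RefSeq start, so all Ptgs2 matches, these included, lie before the start of the measured model. Of all windows, 7.51% held the CRE core and 7.15% the E-box. Ptger4 had 4 GC boxes, written here as the complement CCGCCC and beginning 148, 143, 95 and 42 bases before the start, with the pair farthest out sharing a base. None of the 8 motifs was in the Ptgs1 window, and the GC content of the printed stretches was 61.6% for Ptgs2, 48.0% for Ptgs1 and 66.8% for Ptger4. Windows were found for 8 of the 10 genes. Among these 8, the CRE core, the E-box and the C/EBP palindrome were found in Ptgs2 alone, the AP-1 site (7.81% of all windows) and the NF-κB site (8.46%) in Ptgds alone, and the TATA box (13.6%) in none. The Ptgs2 window ends 50 bases after the RefSeq start, whereas the measured model starts 93 bases downstream. The bases just before the measured Ptgs2 start were therefore not searched, and a missing motif is missing from the window only. A match is a stretch of letters and does not show that a factor binds there.

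The 10 genes spanned from the most abundant transcripts of these cells to transcripts that were not seen. Ptgs2 was far above the rest and ranked between 28 and 48 of all genes in each library. Ptgs1 and Ptgis followed, then Ptger1, Ptges and Ptger4, all above the mean of 0.5 FPKM needed for a test. Ptger3, Ptger2, Ptgfr and Ptgds were below it. Ptgs1 and Ptgis were the only neighbours in this order whose ranges met in the vector libraries, 39.8 to 41.9 FPKM for Ptgs1 and 34.2 to 42.3 FPKM for Ptgis. In the S37A libraries these ranges were apart, with 34.1 to 35.5 FPKM for Ptgs1 and 41.9 to 43.6 FPKM for Ptgis. The ratio of Ptgis to Ptgs1 was 0.816, 1.03 and 1.06 in vector replicates 1 to 3 and 1.19, 1.23 and 1.26 in S37A replicates 1 to 3.

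**Figure D1:**
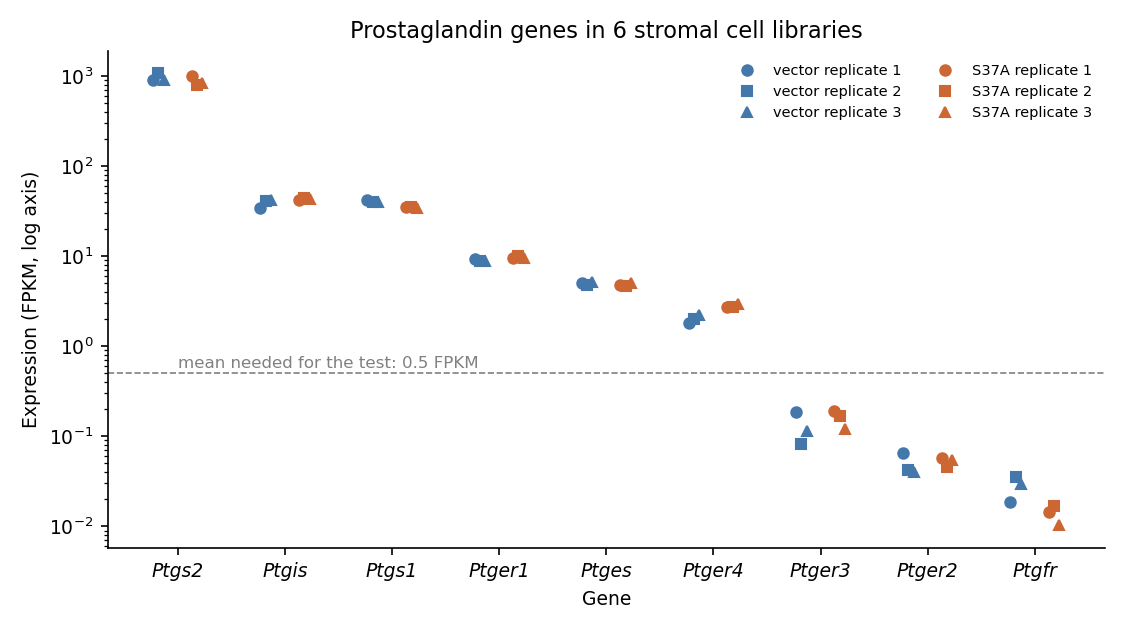
FPKM (log axis) of the 9 detected prostaglandin genes in each library, ordered by mean, with vector libraries in blue and S37A libraries in orange and one marker shape per replicate number. Ptgs2 stands at 800 to 1066 FPKM, 6 genes are above the dashed line at 0.5 FPKM, and Ptger3, Ptger2 and Ptgfr lie below 0.2 FPKM; Ptgds, listed at 0 in every library, cannot be drawn on a log axis.

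Of the 6 genes that could be tested, Ptgs1 fell and Ptger4 rose with S37A β-catenin, and 4 did not pass an adjusted p of 0.05 (limma on log2(FPKM + 1), Benjamini-Hochberg over 12022 genes). Over all genes tested, 6.06% were called higher and 19.9% lower in S37A. The median log2 difference was 0.03 over the 6 genes and -0.07 over all genes. The scaling shifts the balance of all genes: 729 rose and 2393 fell with the deposited FPKM, 1265 and 945 after median-ratio scaling, which brings the median gene of each library level, and 1094 and 957 after quantile normalization.

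Ptgs1 (COX-1; chr2:36230426-36252272, plus strand), the cyclooxygenase found in most tissues, stood at 41.9, 39.8 and 39.9 FPKM in vector replicates 1 to 3 and at 35.2, 35.5 and 34.1 FPKM in S37A replicates 1 to 3. Every S37A library was below every vector library, which held for 36.5% of all genes in this direction. The mean fell from 40.5 ± 1.22 to 34.9 ± 0.746 FPKM (SD, n = 3 each), to 86.2% of the vector level. On the log2(FPKM + 1) scale the difference was -0.21 (SE 0.04, 95% interval -0.29 to -0.12, limma adjusted p = 0.0108). Permuting the 6 values exactly, two-sided, gave p = 0.1, which is the lowest possible with 3 against 3. The call was lost after median-ratio scaling (difference -0.14, limma adjusted p = 0.0508) and without S37A replicate 3 (-0.19, limma adjusted p = 0.0514). Ptgs1 shares 148 exon bases, 3.8% of its own, with the unclassified transcript Gm43621 on the other strand.

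Ptgs2 (COX-2; chr1:150100031-150108227, plus strand), the inducible cyclooxygenase, measured 896, 1066 and 904 FPKM with the vector and 993, 800 and 839 FPKM with S37A. The groups overlapped: S37A replicate 1 was above vector replicates 1 and 3. The means were 955 ± 95.8 and 878 ± 102 FPKM (SD, n = 3 each), and the log2 difference of -0.12 (SE 0.10) had a 95% interval of -0.35 to 0.10 and did not pass (limma adjusted p = 0.355). Counting noise is small for this gene, since its intervals implied 131618 to 220403 fragments per library. The spread between libraries of the same group therefore set the precision.

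Ptgs2 made up 95.5% to 96.6% of the summed FPKM of both cyclooxygenases. Its ratio to Ptgs1 was 21.4, 26.8 and 22.7 in the vector libraries and 28.2, 22.6 and 24.6 in the S37A libraries. The highest ratio of each group fell in vector replicate 2 and S37A replicate 1, which were also highest in Ptgs2. In these same libraries the summed epithelial markers were lowest in their group, at 28.1 FPKM against 31.3 and 39.4 in vector, and at 24.0 against 38.3 and 37.1 in S37A. Of the 12 epithelial markers, 6 were lowest in vector replicate 2 and 10, with ties at 0, in S37A replicate 1. Cldn4, which led the sum, was at 9.29 FPKM in vector replicate 2 against 12.8 and 14.7. Krt19 was instead highest in vector replicate 2, at 5.14 FPKM against 4.16 and 4.71. The stromal markers did not move as 1 group there. Of 14, 8 were lowest in vector replicate 2 and 9 in S37A replicate 1, among them Col1a1, a collagen I chain, at 1444 FPKM against 1834 and 1770 in vector, and at 1847 against 2063 and 2000 in S37A. Acta2, the smooth muscle actin with the highest mean of the list, was instead highest there, at 3254 FPKM against 3118 and 3138 in vector, and at 3700 against 3516 and 3471 in S37A. The part of these markers in the Ptgs2 level was not tested. With both libraries left out, a choice made after seeing the data, the Ptgs2 difference was -0.14 (limma adjusted p = 0.0982).

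**Figure D2:**
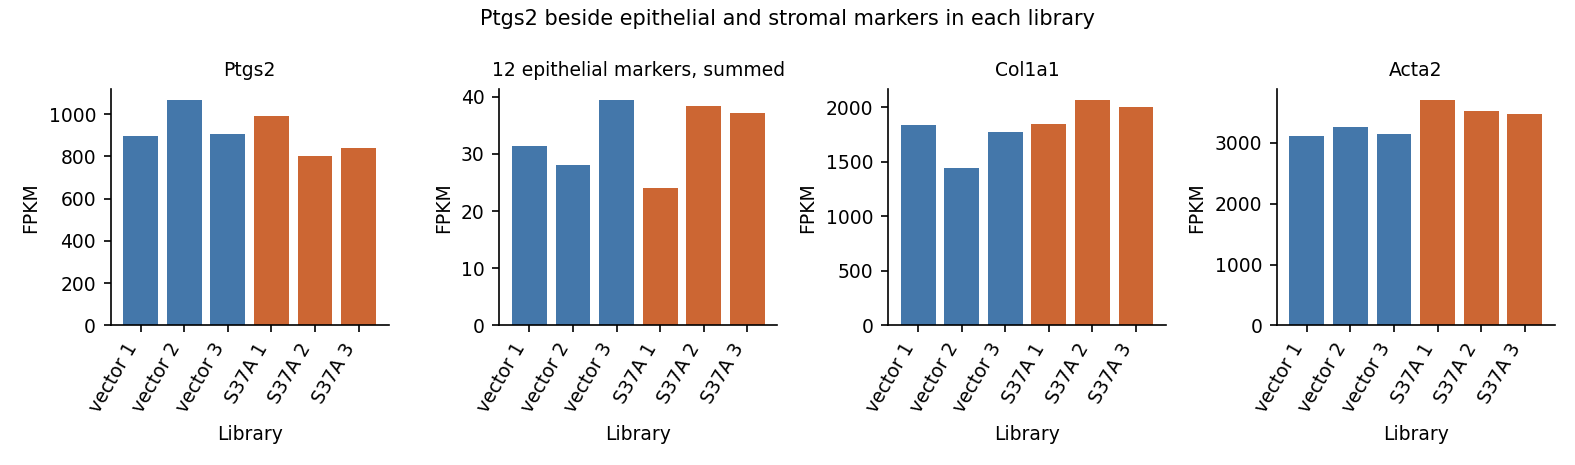
FPKM of Ptgs2, the summed FPKM of 12 epithelial markers, and FPKM of the stromal markers Col1a1 and Acta2, one bar per library (vector blue, S37A orange). Vector replicate 2 and S37A replicate 1 are the highest of their group for Ptgs2 (1066 and 993 FPKM) and Acta2 (3254 and 3700 FPKM) and the lowest for the epithelial sum (28.1 and 24.0 FPKM) and for Col1a1 (1444 and 1847 FPKM).

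Of the terminal synthases, Ptgis and Ptges were expressed and Ptgds was not detected. Ptgis (chr2:167191805-167240604, minus strand) makes prostacyclin, a vasodilator. It was at 34.2, 40.9 and 42.3 FPKM in vector and 41.9, 43.6 and 42.9 FPKM in S37A libraries. Vector replicate 1 was low, and the rest lay close together. The means of 39.1 ± 4.30 and 42.8 ± 0.839 FPKM (SD, n = 3 each) differed by 0.13 (SE 0.07, 95% interval -0.04 to 0.30, limma adjusted p = 0.217). It shares 156 exon bases, 6.1% of its own, with 1110018N20Rik on the other strand. Without vector replicate 1 the difference was 0.04 (limma adjusted p = 0.441).

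Ptges (chr2:30889471-30929863, minus strand), the microsomal prostaglandin E synthase that is often induced together with Ptgs2, was low by comparison. It was at 4.98, 4.78 and 5.14 FPKM in vector and 4.78, 4.63 and 5.06 FPKM in S37A libraries. The groups overlapped, with means of 4.97 ± 0.181 and 4.83 ± 0.221 FPKM (SD, n = 3 each) and a difference of -0.03 (SE 0.05, 95% interval -0.15 to 0.08, limma adjusted p = 0.613). Ptgs2 exceeded Ptges by 166 to 223 times and Ptgis exceeded it by 6.87 to 9.41 times. Ptgds (chr2:25466709-25470046, minus strand), the lipocalin-type prostaglandin D synthase, was listed at 0 in all 6 libraries.

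Among the receptors Ptger4 rose, Ptger1 did not pass the threshold, and Ptger2, Ptger3 and Ptgfr were near the limit of detection. Ptger4 (EP4; chr15:5206661-5244187, minus strand), which couples to Gs and raises cyclic AMP, was at 1.80, 1.99 and 2.24 FPKM in vector libraries. It was at 2.72, 2.72 and 2.92 FPKM in S37A libraries, each above every vector library. In this direction 11.3% of all genes had groups that did not overlap. The mean rose 1.39-fold, from 2.01 ± 0.222 to 2.79 ± 0.114 FPKM (SD, n = 3 each), a log2 difference of 0.33 (SE 0.06, 95% interval 0.18 to 0.48, limma adjusted p = 0.0142; exact permutation p = 0.1). The call was lost without S37A replicate 3 (0.31, limma adjusted p = 0.0588). It was also lost without both libraries lowest in the epithelial marker sum (0.34, limma adjusted p = 0.0696). The macrophage marker sum moved in the same direction, and its part in the Ptger4 level was not tested.

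Ptger4 is the only one of the 10 genes with more than 1 deposited transcript model. The 3327-base model was at 1.80, 1.42 and 0.559 FPKM in vector and 1.35, 1.31 and 1.04 FPKM in S37A libraries. The 3264-base model was listed at 0 in vector replicate 1 and was at 0.563 and 1.68 FPKM in vector replicates 2 and 3. In the S37A libraries it was at 1.38, 1.40 and 1.88 FPKM. The split between the models thus varied widely among vector libraries while their sum did not. In a fit over 14550 models the difference was 0.02 (SE 0.23) for the longer model, with a limma adjusted p = 0.96, and 0.66 (SE 0.36) for the shorter one, with a limma adjusted p = 0.261. The rise therefore holds for the sum only, and the call was lost when a gene was measured by its most abundant model (0.02, limma adjusted p = 0.949). Ptger4 shares 1015 exon bases, 15.3% of its own, with the pseudogene Gm15937 on the other strand. It also shares 82, or 1.2%, with Ttc33 on the other strand. Ttc33 was at 7.13 ± 0.296 and 7.27 ± 0.370 FPKM (SD, n = 3 each, limma adjusted p = 0.739).

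**Figure D3:**
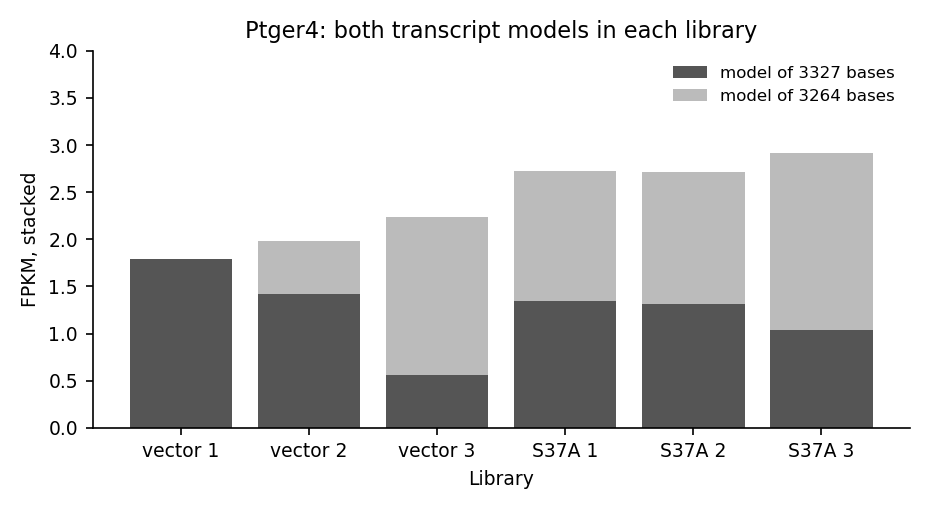
FPKM of both Ptger4 transcript models, stacked, in each library. The sums are 1.80 to 2.24 FPKM in vector and 2.72 to 2.92 FPKM in S37A libraries, while the 3264-base model runs from 0 in vector replicate 1 to 1.88 FPKM in S37A replicate 3.

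Ptger1 (EP1; chr8:83666678-83672753, plus strand), which couples to Gq and calcium, was at 9.19, 8.85 and 8.93 FPKM in vector and 9.42, 10.0 and 9.62 FPKM in S37A libraries. The groups did not overlap, which held for 11.3% of all genes in this direction. The difference of 0.10 (SE 0.04, 95% interval 0.00 to 0.19) did not pass (limma adjusted p = 0.107, exact permutation p = 0.1). It passed after median-ratio scaling (0.16, limma adjusted p = 0.0293), after quantile normalization (0.16, limma adjusted p = 0.0335) and with array weights, which give libraries that deviate more a smaller say (0.10, limma adjusted p = 0.0384).

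Ptger3, Ptger2 and Ptgfr were below the level needed for a test. Ptger3 (EP3; chr3:157566892-157645888, plus strand), which couples mainly to Gi, was at 0.184, 0.0826 and 0.114 FPKM in vector and 0.191, 0.168 and 0.120 FPKM in S37A libraries. Its intervals implied 8 to 17 fragments per library. Ptger2 (EP2; chr14:44988195-45003820, plus strand), which like Ptger4 couples to Gs, was at 0.0660, 0.0419 and 0.0405 FPKM in vector and 0.0571, 0.0460 and 0.0548 FPKM in S37A libraries, from 7 to 12 implied fragments. Its groups overlapped. Of these Gs-coupled EP receptors Ptger4 was the more abundant, by 27.2 to 59.0 times per library.

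Ptgfr (chr3:151796502-151837630, minus strand), the prostaglandin F receptor, was at 0.0186, 0.0355 and 0.0294 FPKM in vector and 0.0145, 0.0167 and 0.0103 FPKM in S37A libraries. The groups did not overlap (exact permutation p = 0.1), but the levels rest on 2 to 8 implied fragments and the lower interval bound was above 0 in 2 libraries only, vector replicates 2 and 3. Of the tested genes, which leave out Ptgfr as too low, 36.5% did not overlap in this direction. So few fragments cannot settle whether the Ptgfr level differs.

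Of 10 further genes of prostanoid synthesis, 8 could be tested, 0 rose, 2 fell and 6 did not pass, with a median difference of -0.15. The 25.0% that fell stand beside 19.9% of all genes. After median-ratio scaling 1 fell, or 12.5%, beside 945 of all 12022 genes. Cbr3, a carbonyl reductase, was at 16.6, 15.9 and 17.8 FPKM in vector and 12.3, 13.5 and 13.5 FPKM in S37A libraries. It fell by 0.33 (SE 0.05, limma adjusted p = 0.0101) without overlap, which held for 36.5% of all genes in this direction. Cbr1, which can reduce prostaglandin E2 to F2α, fell by 0.16, from 22.5 ± 1.12 to 20.0 ± 0.174 FPKM (SD, n = 3 each; limma adjusted p = 0.0333), a call that held in 8 of 19 alternatives. Ptges3, the cytosolic synthase also known as the co-chaperone p23, was the most abundant at 61.9 ± 3.66 and 54.7 ± 3.33 FPKM (SD, n = 3 each; limma adjusted p = 0.0611). Ptges2 stood at 8.85 ± 0.512 and 7.98 ± 0.137 FPKM (SD, n = 3 each; limma adjusted p = 0.0797).

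The aldo-keto reductases did not pass. Akr1b8 was at 51.3 ± 1.07 and 50.9 ± 1.43 FPKM (SD, n = 3 each), and Akr1c18 was at 0.770 ± 0.236 and 0.497 ± 0.231 FPKM (SD, n = 3 each; limma adjusted p = 0.192). Akr1b3 was listed at 0 in vector replicate 2 and at 1.81 to 2.93 FPKM in the other 5 libraries. Fam213b, a prostamide and prostaglandin F synthase, was at 14.6 ± 0.708 and 14.3 ± 1.37 FPKM (SD, n = 3 each). The synthases of blood and immune cells were below the level for a test: Hpgds, the hematopoietic prostaglandin D synthase, had means of 0.197 and 0.120 FPKM, and Tbxas1, the thromboxane synthase, 0.265 and 0.290 FPKM.

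Of 6 genes of prostaglandin transport and breakdown, 5 could be tested, of which 1 fell and 4 did not pass, with a median of 0.05. That is 20.0% lower, beside 19.9% of all genes. Abcc4 (MRP4), an exporter that carries prostaglandin E2 among other substrates, was at 4.91, 5.45 and 4.89 FPKM in vector and 3.99, 3.99 and 4.01 FPKM in S37A libraries. It fell by 0.28 (SE 0.05, limma adjusted p = 0.0115) with no overlap of the groups, which held for 36.5% of all genes in this direction. Slco2a1, the prostaglandin uptake transporter, was at 12.3 ± 0.929 and 13.1 ± 0.484 FPKM (SD, n = 3 each; limma adjusted p = 0.298). Hpgd, the dehydrogenase that starts prostaglandin breakdown, was close to absent, with means of 0.0855 and 0.131 FPKM. The reductases of the later step were at 16.3 ± 0.528 and 15.7 ± 0.0893 FPKM for Ptgr1, 7.89 ± 0.583 and 8.71 ± 0.353 FPKM for Ptgr2, and 12.1 ± 0.639 and 12.6 ± 0.319 FPKM for Zadh2 (SD, n = 3 each), and none of them passed (limma adjusted p = 0.392, 0.132 and 0.394).

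Of 5 other genes of prostanoid reception, 2 could be tested and neither passed. Tbxa2r, the thromboxane receptor, was at 1.74 ± 0.407 and 1.66 ± 0.139 FPKM (SD, n = 3 each; limma adjusted p = 0.82). Ptgfrn, a membrane protein that binds near the F receptor and is no receptor itself, was at 16.6 ± 0.672 and 16.3 ± 0.834 FPKM (SD, n = 3 each; limma adjusted p = 0.716). Ptgir, the receptor of the prostacyclin that Ptgis makes, had means of 0.289 and 0.237 FPKM. Of the prostaglandin D receptors, Ptgdr2 was listed at 0 in all 6 libraries and Ptgdr in all but vector replicate 2.

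**Figure D4:**
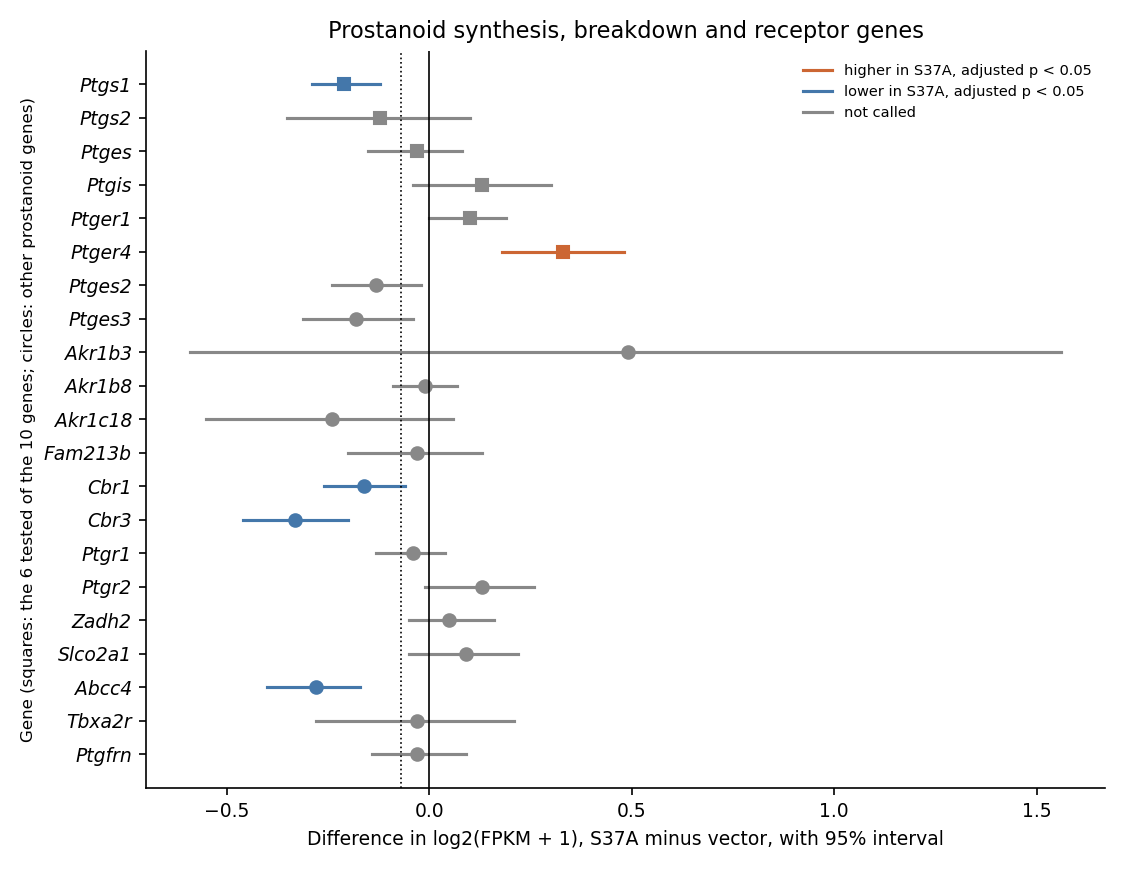
Difference in log2(FPKM + 1), S37A minus vector, with unadjusted 95% intervals, for the tested prostanoid genes (squares for the 6 of the 10 genes, circles for 15 others). Ptger4 is the only gene drawn as higher; Ptgs1, Cbr1, Cbr3 and Abcc4 are drawn as lower, the dotted line marks the median of all genes at -0.07, and the wide interval of Akr1b3 comes with a value of 0 in vector replicate 2.

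Upstream of the cyclooxygenases, 14 of 23 genes listed under arachidonate release and reacylation could be tested. Of these, 2 rose, 4 fell and 8 did not pass, with a median of -0.01. Whether each listed gene frees arachidonate in these cells was not tested. The shares were 14.3% higher and 28.6% lower, beside 6.06% and 19.9% of all genes. After median-ratio scaling 3 rose and 2 fell, or 21.4% and 14.3%, beside 1265 and 945 of all 12022 genes. Mgll, the monoacylglycerol lipase that frees arachidonate from 2-arachidonoylglycerol, was at 27.4, 28.9 and 30.8 FPKM in vector and 39.4, 37.0 and 39.7 FPKM in S37A libraries. It rose by 0.40 (SE 0.05, limma adjusted p = 0.00535) in all 18 alternatives that measured it. Dagla, one of the lipases that make 2-arachidonoylglycerol, fell by 0.28, from 1.97 ± 0.0950 to 1.45 ± 0.0362 FPKM (SD, n = 3 each; limma adjusted p = 0.0114). Pla2g2e, a secreted phospholipase, fell by 0.63, from 2.37 ± 0.391 to 1.18 ± 0.250 FPKM (SD, n = 3 each; limma adjusted p = 0.0110).

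Pla2g12a, another secreted phospholipase, fell by 0.21 (limma adjusted p = 0.0273), a call that held in 8 of 18 alternatives. Daglb also fell, by 0.17 (limma adjusted p = 0.0337, held in 6 of 19), and Pla2g7 rose by 0.34 (limma adjusted p = 0.0378, held in 9 of 18). Pla2g4a, the cytosolic phospholipase that supplies most arachidonate to cyclooxygenases in many cells, was at 81.4 ± 1.72 and 80.2 ± 0.308 FPKM (SD, n = 3 each), and its difference of -0.02 had a limma adjusted p = 0.635. Anxa1 (annexin A1) was at 528 ± 17.6 and 563 ± 6.06 FPKM (SD, n = 3 each; limma adjusted p = 0.0904). Daglb, Pla2g7, Pla2g4a and Anxa1 were named after their values were seen.

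Of 11 genes of the lipoxygenase branch, which also uses arachidonate, 3 could be tested and none of the 3 passed. Lta4h, the leukotriene A4 hydrolase, was at 30.2 ± 1.61 and 31.7 ± 1.56 FPKM, and Ltc4s, the leukotriene C4 synthase, at 1.09 ± 0.321 and 0.974 ± 0.187 FPKM (SD, n = 3 each). Ephx2, an epoxide hydrolase, ranged from 2.53 to 3.32 FPKM in vector and from 2.93 to 3.12 FPKM in S37A libraries. The listed lipoxygenases were below the level for a test. Means in vector and S37A were 0.299 and 0.207 FPKM for Alox5, 0.376 and 0.542 FPKM for Alox12, and 0.0236 and 0.00307 FPKM for Alox15. Alox5ap, the partner of Alox5, had means of 0.288 and 0.580 FPKM. The genes in this paragraph were named after their values were seen.

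Of 25 known inducers and transcript regulators of Ptgs2, 20 could be tested, and 9 fell, 2 rose and 9 did not pass, with a median of -0.10. The shares were 45.0% lower and 10.0% higher, beside 19.9% and 6.06% of all genes. After median-ratio scaling 5 fell and 3 rose. Nfkbiz, which encodes IκBζ, an atypical member of the IκB family, fell by 1.20 (SE 0.05, limma adjusted p = 7.58e-05). It was at 22.5, 22.9 and 21.0 FPKM in vector and 9.50, 9.24 and 8.45 FPKM in S37A libraries. Cebpd, a factor of the family that binds C/EBP sites such as the palindrome printed for Ptgs2, fell by 0.56, from 16.4 ± 1.11 to 10.8 ± 0.561 FPKM (SD, n = 3 each; limma adjusted p = 0.0034). Egr1, an immediate-early factor, fell by 0.45, from 104 ± 6.89 to 75.8 ± 5.46 FPKM (SD, n = 3 each; limma adjusted p = 0.0077). Nfkb1, an NF-κB subunit, fell by 0.35, from 21.2 ± 1.63 to 16.4 ± 0.436 FPKM (SD, n = 3 each; limma adjusted p = 0.00925). These 4 calls held in every alternative that measured the gene.

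Nfkb2, Rela, Relb, Khsrp and Tnfrsf1a also fell, by 0.11 to 0.30 on the log2 scale, and Nfkbia and Celf2 rose by 0.14 and 0.15. Several of these calls were lost in many alternatives: Tnfrsf1a held in 5 of 19, Relb in 8 of 18, Nfkbia in 8 of 19, Rela in 9 of 19 and Celf2 in 9 of 18, whereas Nfkb2 held in 17 of 18 and Khsrp in 16 of 19. Of the listed proteins that bind AU-rich messages such as that of Ptgs2, Khsrp fell and Celf2 rose, while Elavl1, Zfp36, Zfp36l1, Zfp36l2 and Tia1 did not pass. Elavl1 (HuR), a stabilizer, had 14.1 ± 0.554 and 14.1 ± 0.230 FPKM (SD, n = 3 each, limma adjusted p = 0.981). Zfp36 (tristetraprolin), which promotes decay, had 82.0 ± 6.85 and 85.4 ± 4.96 FPKM (SD, n = 3 each, limma adjusted p = 0.539). For Zfp36l1, Zfp36l2 and Tia1 the limma adjusted p was 0.921, 0.154 and 0.108. Cebpb was at 44.5 ± 3.34 and 37.1 ± 4.39 FPKM (SD, n = 3 each; limma adjusted p = 0.0634). The cytokines that induce Ptgs2 were scarce in both groups, with means of at most 0.178 FPKM for Il1a, 0.0455 FPKM for Il1b and 0.239 FPKM for Tnf. Il1a and Tnf were higher in every S37A library than in any vector library. That held for 11.3% of the genes tested, a set that leaves out Il1a and Tnf as too low. Genes named in this paragraph beyond the rule were chosen after their values were seen. The 9 genes that fell are of mixed kinds, from Nfkb1 to Khsrp, a protein that binds AU-rich messages. Whether the Ptgs2 level followed any of them was not tested. The Ptgs2 difference of -0.12, with an interval of -0.35 to 0.10, did not pass and does not show an unchanged level.

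**Figure D5:**
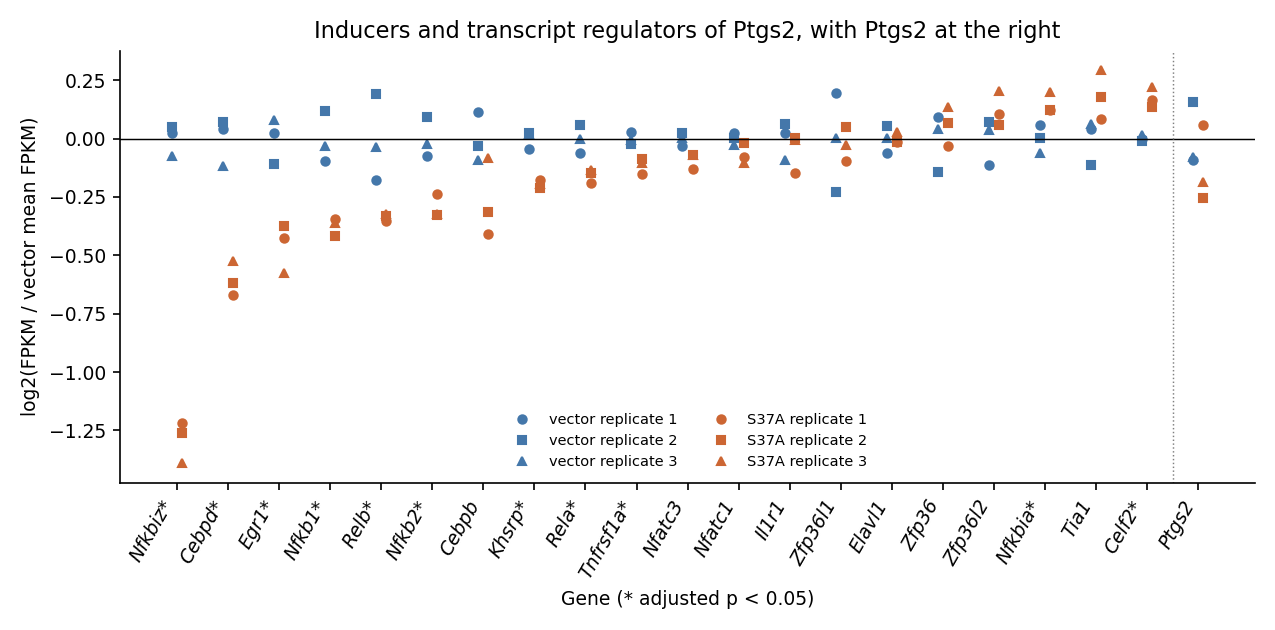
Level of the 20 tested inducers and regulators of Ptgs2, and of Ptgs2 at the right, in each library as log2 of FPKM over the vector mean; blue points are vector, orange points S37A, and an asterisk marks an adjusted p under 0.05. The S37A points of Nfkbiz, Cebpd, Egr1 and Nfkb1 lie below all vector points, whereas the Ptgs2 points of the groups are interleaved.

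Downstream of the receptors, 36 of 39 genes of cyclic AMP and Gq signalling could be tested, and 1 rose, 3 fell and 32 did not pass, with a median of -0.03. The 8.33% that fell and 2.78% that rose stand beside 19.9% and 6.06% of all genes. Rapgef3 (EPAC1), a cyclic AMP effector, was at 2.37, 1.98 and 1.94 FPKM in vector and 1.45, 1.26 and 1.55 FPKM in S37A libraries, and fell by 0.35 (SE 0.07, limma adjusted p = 0.0177). Pde7a, a phosphodiesterase that breaks down cyclic AMP, fell by 0.26, from 2.25 ± 0.0823 to 1.72 ± 0.154 FPKM (SD, n = 3 each; limma adjusted p = 0.0206). Gnai2, an inhibitory G protein subunit, fell by 0.13, from 253 ± 5.20 to 231 ± 0.687 FPKM (SD, n = 3 each; limma adjusted p = 0.0224). Adcy7, an adenylyl cyclase, rose by 0.27, from 10.8 ± 0.875 to 13.2 ± 0.971 FPKM (SD, n = 3 each; limma adjusted p = 0.0322). Each of these 4 calls was lost in some alternatives, holding in 14 of 17 for Rapgef3, 10 of 17 for Pde7a, 11 of 19 for Gnai2 and 11 of 18 for Adcy7.

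Over all 7 pathway lists, 88 of 119 genes could be tested, and 5 rose and 19 fell. These shares of 5.68% and 21.6% are near those of all genes, 6.06% and 19.9%, and the median of -0.03 stands beside -0.07.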

How the data were processed

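RNA of 3 vector and 3 S37A libraries, grouped by their titles, was made into cDNA with a SMART-Seq v4 kit and sequenced on an Illumina HiSeq, per the labels' protocols. TopHat, Cufflinks, bcl2fastq 1.8.3 and the mm10 build are named in the submitters' processing notes. Per the file headers, the authors' files give the FPKM of 34535 transcript models with interval bounds, and a coverage signal that served here only to check depth. Read counts are not used here. Depth and fragment numbers were inferred from interval widths and cover counting error only.

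FPKM values were summed by symbol, leaving out 5 genes with a status other than OK. Genes whose mean reached 0.5 FPKM, 12022 in all, entered a limma 3.58.1 fit of log2(FPKM + 1) in R 4.3.3 (trend, no block, two-sided, Benjamini-Hochberg at 0.05), a scale that understates changes of low genes, and "fell by" and "rose by" give differences on it. Single genes were also tested by exact permutation (SciPy 1.17.1). The limma script was tested on simulated data. The 19 alternatives covered pseudocount, filter, scaling, model choice, weights, replicate block and left-out libraries. Correlations of same-numbered libraries did not pair them.

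Gene positions and shared exon bases are from GENCODE M21 (mm10, 1-based), promoters from RefSeq. Whether the shared bases lie in the measured transcript models was not examined. The 10 genes and the lists were chosen with earlier results of these data known. The text names the 10 genes, up to 4 called genes per list with the smallest p, all of the 3 short prostanoid lists, Ctnnb1, Axin2 and the highest markers, and other genes were named after their values were seen. A result on a gene beside these is not reported here.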

Additional observations from a re-analysis of the deposited data

How the results depend on the processing

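No value changed sign among the called results. Against 729 genes higher and 2393 lower, median-ratio scaling gave 1265 and 945, quantile normalization 1094 and 957, and array weights 1238 and 3655. The added choice to leave out both libraries lowest in the epithelial marker sum gave 426 and 737. Removing the 100 most abundant genes left 1500 lower and using the most abundant model 1491. Leaving out a single replicate gave 276 to 744 higher and 547 to 2406 lower, fewest without S37A replicate 3. A fit with a replicate block gave 442 and 1193. Same-numbered libraries correlated at -0.12, 0.021 and 0.104, which gave no ground to pair them. With 3 libraries per group, such values cannot settle whether same-numbered libraries share an origin.

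Of the 10 genes, 2 were higher after median-ratio scaling, quantile normalization or array weights, and 0 with the most abundant model or with the added choice. The setting with genes of 1 model leaves out Ptger4, so its count of 0 higher cannot speak to that call. Median-ratio scaling left 0 lower, and single left-out replicates gave 0 to 1 in each direction. Ptgs1 moved to -0.14 after median-ratio scaling and to -0.22 to -0.18 with a replicate left out. Ptger1 passed at 0.16, 0.16 and 0.10 after median-ratio scaling, quantile normalization and array weights. Ptger4 was lost at 0.02 with the most abundant model and 0.34 with the added choice, and ranged from 0.28 to 0.39 with a replicate left out. For these the cause was not tested.

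Of the 7 pathway lists, with 5 genes higher and 19 lower, quantile normalization gave 8 and 12, array weights 9 higher and median-ratio scaling 11 lower. The replicate block gave 1 and 12, the most abundant model 1 and 12, and the added choice 2 and 9. Genes of 1 model gave 1 and 12, but that setting leaves out called genes with more models, Mgll, Celf2 and Adcy7 among them. Leaving out a replicate gave 1 to 3 higher and 10 to 17 lower. Of the 24 called genes, 7 were called in every alternative that measured them. Ptgs2 is among the 100 most abundant genes and has no value in that setting. Count models (edgeR, DESeq2) were not run, since the files used give FPKM.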
